A study of Mus musculus with 6 samples.

Results

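Solute carriers are the membrane proteins, with symbols beginning Slc, that move amino acids, sugars, ions, metals, vitamins and metabolites across the plasma membrane and the membranes of mitochondria, lysosomes and the Golgi apparatus. The genes were taken as every symbol of the platform annotation that begins with Slc and a digit, without the glucose transporters Slc2a1 and Slc2a3. The annotation named 346 such genes, on 605 probes. A gene was kept where 3 or more of the 6 arrays gave a probe a detection p under 0.05, and it was represented by the kept probe with the highest mean of the deposited log2 values. This left 161 Slc genes among 8743 genes tested in all. The other 185 were not tested, and for 144 of them no probe was detected on any array. Of the 161, 3 are no carriers: Slc9a3r1 encodes a membrane scaffold protein and Slc4a1ap an adaptor protein, while Slc7a6os is the gene opposite Slc7a6. They follow the symbol rule and were kept.

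RNA came from regulatory T cells of C57/B6 mice, with bone marrow given as the tissue, and 3 samples each were labelled Blimp1 +/gfp and Blimp1 gfp/gfp. As background, the allele places gfp in Prdm1, the gene of the transcriptional repressor Blimp-1. It leaves cells with both copies replaced without functional Blimp-1, while the Blimp1 +/gfp cells carry the cassette on 1 copy and keep the other intact. The labels give no age, no sort or gate, and nothing on whether a genotype's samples came from different mice. The p-values therefore cover the spread between these samples only, and that may be technical. The 3 arrays of a genotype shared a BeadChip that held no sample of the other, and an effect of the chip and one of the genotype cannot be told apart.

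T cells depend on carriers in ways that are well described. Amino acid exchangers such as Slc7a5 and Slc1a5 feed protein synthesis and mTORC1 signalling in activated T cells, Slc25 proteins link mitochondria to the cytosol, zinc and iron carriers set the metal supply of dividing cells, and Slc35 proteins bring nucleotide sugars into the Golgi apparatus for glycosylation. Regulatory T cells are known to rely on amino acid uptake for their proliferation and suppressive function.

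Prdm1 itself was 5.76, 5.82 and 5.5 in Blimp1 +/gfp and 7.14, 7.75 and 7.53 in Blimp1 gfp/gfp on its brighter probe, higher by 1.78 ± 0.20 where both copies carry gfp (adjusted p = 0.00738, limma with Benjamini-Hochberg). The sources used here do not place this probe relative to the gfp insertion, and the gene therefore gives no check of the genotype labels. From 14694 to 16067 of 46632 probes were detected per array, and the number of arrays limits the precision. Foxp3, the lineage factor of regulatory T cells, was detected on all 6 arrays, and none of the 13 regulatory and general T cell markers tested rose, while 1 fell (Tnfrsf18). Cebpa rose and 0 fell among 8 tested markers of myeloid cells and granulocytes. Among 10 of dendritic cells and antigen presentation, 0 rose and Irf8 fell. The mean level of the myeloid markers ran from 7.20 to 8.26 in Blimp1 +/gfp and from 6.88 to 7.83 in Blimp1 gfp/gfp, highest in Blimp1 +/gfp replicate 3. Of the 6 B cell and plasma cell markers tested 2 were higher (Blk and Pou2af1), and their mean level was 6.88 to 8.06 in Blimp1 +/gfp and 8.68 to 9.26 in Blimp1 gfp/gfp. All 6 differences were positive. Cd79a and Cd79b, the signalling chains of the B cell receptor, differed by 1.90 ± 0.60 and 0.26 ± 0.43 (adjusted p = 0.146 and 0.816, limma with Benjamini-Hochberg). Cd79b was detected on all 6 arrays and Cd79a on 1 Blimp1 +/gfp and 3 Blimp1 gfp/gfp arrays, while Jchain, Pax5 and Sdc1 of the same list were detected on none. Eif2s3y, a Y-linked gene, was detected on all 3 arrays of Blimp1 +/gfp and none of Blimp1 gfp/gfp, while Xist, which is transcribed from the inactive X chromosome of female cells, was 9.69, 9.20 and 5.52 against 9.88, 11.36 and 11.01. Eif2s3y RNA was thus detected in every sample of Blimp1 +/gfp and in none of Blimp1 gfp/gfp. Xist was detected on 2 arrays of Blimp1 +/gfp and all 3 of Blimp1 gfp/gfp, so 2 Blimp1 +/gfp samples held RNA of both genes. The part of sex was not tested, and with this split of Eif2s3y it cannot be told apart from that of genotype. The 7 tested Slc genes of the X chromosome held 0 genes past the threshold in limma, and 0 had an unadjusted p under 0.05, beside 18.5% of all genes. So few genes say nothing about the part of sex. In such bulk samples, fewer cells of a type and less RNA per cell cannot be told apart.

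The differences of most solute carriers were small, and those of a few single members were large. In Blimp1 gfp/gfp, 7 of the 161 Slc genes rose and 1 fell (limma, Benjamini-Hochberg adjusted p under 0.05 over the 8743 genes). This is 4.97% of them, where 4.13% of all genes passed in either direction, 2.42% as higher and 1.70% as lower. The members' share is near that background, so the count says nothing particular about carriers. Slc1a4, among the 7 that rose, was detected in Blimp1 gfp/gfp alone, so the detection rule kept it only because it was high there. The unadjusted p was under 0.05 for 20 higher and 11 lower members (12.4% and 6.83%), near the 11.3% and 7.22% of all genes. The median log2 difference of the Slc genes was 0.00, with 81 above and 80 below 0, beside a median of 0.03 for all genes, with 4784 above and 3959 below. The quartiles of the members were -0.19 and 0.29, and those of all genes -0.17 and 0.25. A difference of under 0.5 in size was found for 128 Slc genes (79.5%, all genes 80.3%), and of 1 or more for 10 (6.21%, all genes 6.35%). The 3 values of the genotypes did not overlap for 45 Slc genes (28%), 27 higher and 18 lower, where 25.8% of all genes did not overlap (15.4% higher and 10.4% lower).

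**Figure D1:**
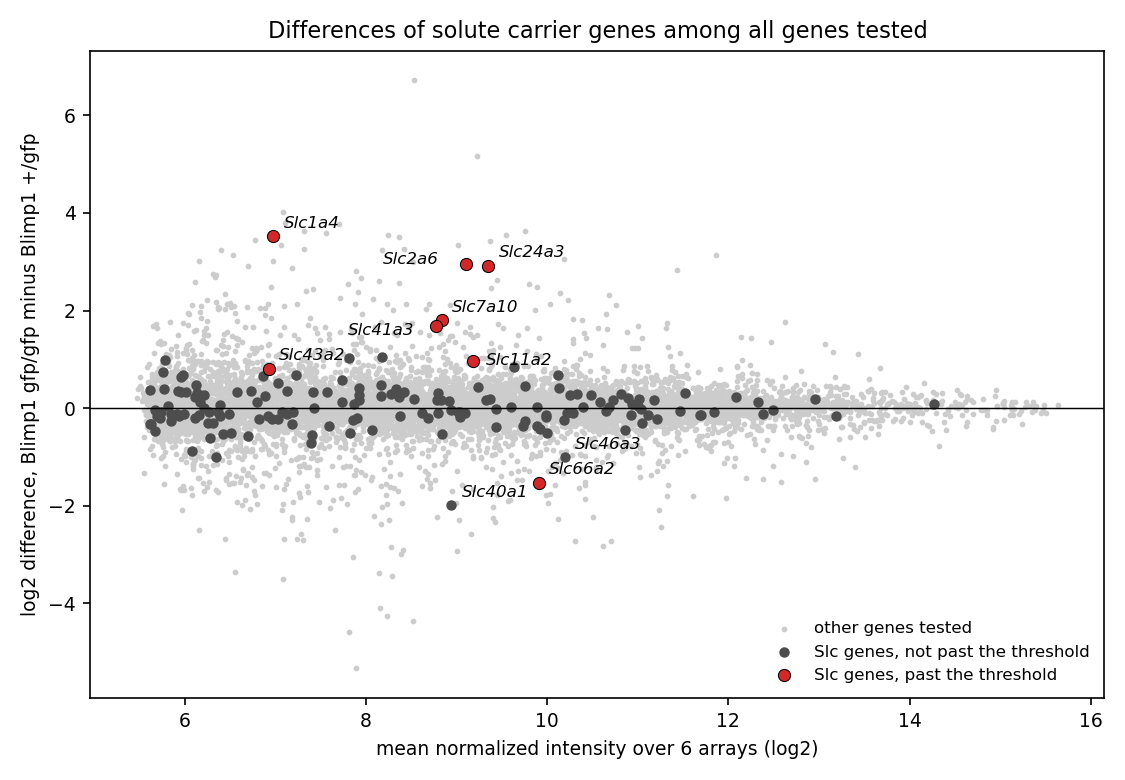
Mean normalized log2 intensity over 6 arrays (x) against the log2 difference, Blimp1 gfp/gfp minus Blimp1 +/gfp (y), with 1 point per gene. Most of the 153 Slc genes that did not pass lie around 0 among the other genes (grey), with Slc40a1 the lowest at -1.99. Of the 8 that passed (red), 7 lie above 0.

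Amino acid carriers held the most members that rose, 3 of 23, with 0 lower (13% called, beside 4.13% of all genes in either direction). The 3 include Slc1a4, which the detection rule kept through its Blimp1 gfp/gfp arrays alone, so it had to differ to be counted. Slc1a4 encodes ASCT1, an exchanger of alanine, serine, cysteine and threonine. Its normalized log2 intensities were 5.09, 5.0 and 5.56 in Blimp1 +/gfp against 8.23, 9.66 and 8.34 in Blimp1 gfp/gfp. All 3 Blimp1 gfp/gfp arrays detected it, replicate 2 with the highest value, and none of the Blimp1 +/gfp arrays did. By the group means this was at least 7.86-fold higher, and the log2 difference before that bound was 3.53 ± 0.40 (SE; adjusted p = 0.00738, limma with Benjamini-Hochberg). For that bound, each Blimp1 +/gfp array entered with Slc1a4's own value or the lowest value of any detected probe (5.68 to 5.87 over the arrays), whichever was higher.

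Slc7a10 encodes Asc-1, an exchanger of small neutral amino acids that is best known from brain and fat cells. It was 7.79, 7.39 and 8.63 in Blimp1 +/gfp and 9.97, 9.55 and 9.69 in Blimp1 gfp/gfp. The groups did not overlap, and Blimp1 +/gfp replicate 3 stood above the other samples of its genotype. Slc7a10 rose by 1.80 ± 0.32 (SE), 3.48-fold (adjusted p = 0.0299, limma with Benjamini-Hochberg). Slc43a2, which encodes LAT4, a carrier of branched-chain amino acids, phenylalanine and methionine, was 6.47, 6.36 and 6.73 against 7.46, 7.24 and 7.31. All Blimp1 gfp/gfp values were higher, by less than for the other 2. It rose by 0.81 ± 0.16 (SE; adjusted p = 0.0385, limma with Benjamini-Hochberg). Its second probe was not detected on any array.

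The tested amino acid carriers best known from activated T cells did not pass. Slc7a5, the light chain of the large neutral amino acid carrier, was 9.89, 10.82 and 9.66 in Blimp1 +/gfp and 10.93, 10.05 and 10.21 in Blimp1 gfp/gfp. The groups overlapped, with a difference of 0.27 ± 0.36 (SE; adjusted p = 0.769, limma with Benjamini-Hochberg). Slc3a2, the heavy chain it pairs with, was detected on 1 array and was not tested. Slc1a5, the glutamine carrier ASCT2 and closest relative of Slc1a4 among the tested genes, was 10.95, 10.55 and 10.53 against 10.79, 11.03 and 11.05, a difference of 0.28 ± 0.17 (SE; adjusted p = 0.459, limma with Benjamini-Hochberg). Slc38a2, a sodium-coupled carrier of neutral amino acids, differed by -0.07 ± 0.34, its relative Slc38a1 by -0.13 ± 0.29, and the taurine carrier Slc6a6 by 0.23 ± 0.26. Slc43a1, a relative of Slc43a2 that carries similar substrates, was detected on 1 Blimp1 +/gfp array and all 3 Blimp1 gfp/gfp arrays, and differed by 0.65 ± 0.20 (adjusted p = 0.135, limma with Benjamini-Hochberg). Over the 23 amino acid and neurotransmitter carriers the median difference was 0.23, and 8 did not overlap between genotypes, 7 of them higher (34.8% in either direction, beside 25.8% of all genes). Slc1a4, Slc6a9 and Slc36a3 are among the 8. Each was detected in a single genotype, so the detection rule kept it only because it was high there. Of the class, 52.2% were detected on all 6 arrays, beside 84.8% of all genes. The part of detection in the share without overlap was not tested, and no conclusion about the class is drawn from that share. Of 18 tested genes of the amino acid response, the set that cells are known to induce through Atf4 when amino acids run short, 0 passed in limma. Their unadjusted limma p was under 0.05 for 3 higher and 2 lower genes, beside 18.5% of all genes. Asns, the asparagine synthetase, differed by -0.39 ± 0.45 and Atf4 by 0.06 ± 0.16 (adjusted p = 0.725 and 0.891, limma with Benjamini-Hochberg).

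**Figure D2:**
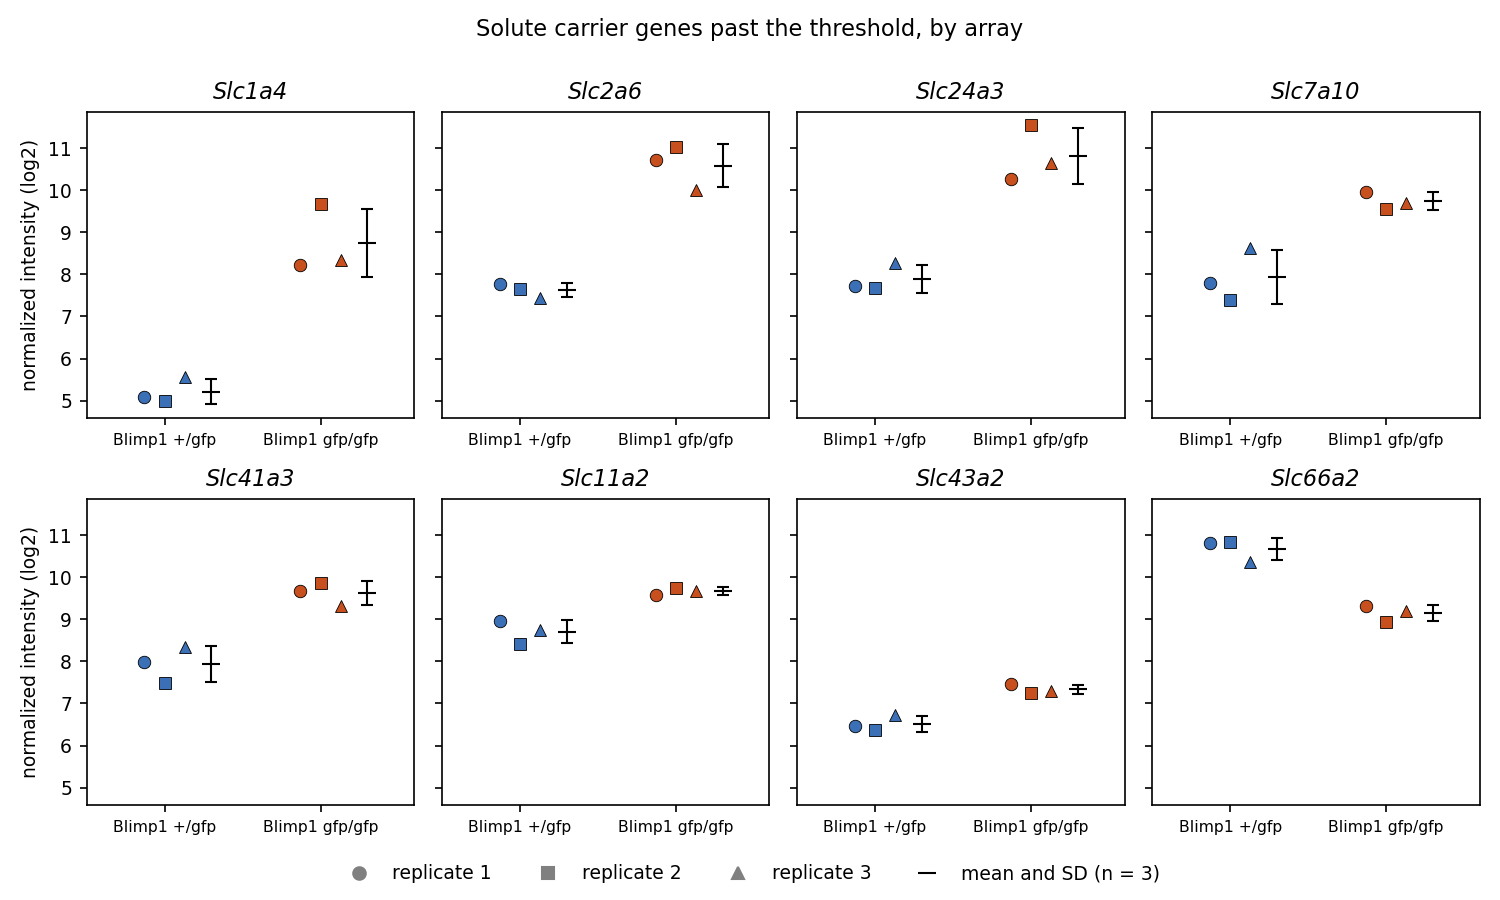
Normalized log2 intensity on each array (y) of the 8 Slc genes that passed, for Blimp1 +/gfp (blue) and Blimp1 gfp/gfp (orange), with the mean and SD of 3 arrays in black. In each panel the 3 arrays of one genotype lie clear of the 3 of the other, and Slc66a2 is the gene that is lower in Blimp1 gfp/gfp.

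Among the 9 sugar carriers, 1 rose and 0 fell (11.1%, beside 4.13% of all genes). Slc2a6 encodes GLUT6, a facilitative sugar carrier of lysosomal membranes found in leukocytes. It was 7.78, 7.66 and 7.44 in Blimp1 +/gfp and 10.72, 11.02 and 10.01 in Blimp1 gfp/gfp. The lowest Blimp1 gfp/gfp value stood well above the highest Blimp1 +/gfp value. Slc2a6 rose by 2.96 ± 0.27 (SE), a 7.79-fold difference with a 95% interval of 5.0 to 12.1 (adjusted p = 0.00574, limma with Benjamini-Hochberg). Its relatives Slc2a8, an intracellular glucose carrier, and Slc2a9, a urate carrier, differed by -0.55 ± 0.21 and 0.12 ± 0.24 (adjusted p = 0.224 and 0.858, limma with Benjamini-Hochberg). The sugar phosphate antiporter Slc37a2 was 7.26, 7.06 and 7.58 against 8.17, 8.77 and 8.05, without overlap, and differed by 1.03 ± 0.24, short of the threshold (adjusted p = 0.0693, limma with Benjamini-Hochberg).

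Of the 16 carriers of sodium, protons, bicarbonate, chloride, sulphate and calcium ions, 1 rose and 0 fell (6.25%, beside 4.13% of all genes). This was Slc24a3, which encodes NCKX3, an exchanger that trades calcium against sodium together with potassium. Its values were 7.72, 7.68 and 8.28 in Blimp1 +/gfp and 10.26, 11.54 and 10.64 in Blimp1 gfp/gfp. The groups were far apart, and replicate 2 was the highest of the Blimp1 gfp/gfp samples, as it was for Slc1a4 and Slc2a6. Slc24a3 rose by 2.92 ± 0.35 (SE), a 7.57-fold difference (adjusted p = 0.00908, limma with Benjamini-Hochberg). The other tested exchanger of its family, Slc24a4, differed by -0.08 ± 0.16, and the mitochondrial sodium-calcium exchanger Slc8b1 by 0.02 ± 0.23 (adjusted p = 0.855 and 0.976, limma with Benjamini-Hochberg). Of 13 ATP-driven ion pumps tested, 0 passed in limma, where the unadjusted p was under 0.05 for 2 higher and 2 lower genes, beside 18.5% of all genes. The largest of these differences was that of Atp1b1, a sodium pump subunit chosen after its values were seen, at 2.11 ± 0.54 (adjusted p = 0.0895, limma with Benjamini-Hochberg).

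Slc1a4, Slc2a6 and Slc24a3 were the members with the largest gains, and the RefSeq windows at their start sites are shown for that reason. Each window runs from 250 bases before to 50 after a start in GRCm38.p6, 300 bases in all, written 5′ to 3′ on the gene's strand with CpG dinucleotides in capitals. For Slc24a3 the upstream of 2 listed starts is given.
Slc1a4, chr11:20332664-20332963, minus strand: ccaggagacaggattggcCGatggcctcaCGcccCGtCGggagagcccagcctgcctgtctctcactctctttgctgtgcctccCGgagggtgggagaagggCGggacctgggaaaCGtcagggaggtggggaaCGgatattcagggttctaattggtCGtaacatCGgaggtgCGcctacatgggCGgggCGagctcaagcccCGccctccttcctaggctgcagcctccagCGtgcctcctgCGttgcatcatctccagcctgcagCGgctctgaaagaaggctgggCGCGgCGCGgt
Slc2a6, chr2:27027949-27028248, minus strand: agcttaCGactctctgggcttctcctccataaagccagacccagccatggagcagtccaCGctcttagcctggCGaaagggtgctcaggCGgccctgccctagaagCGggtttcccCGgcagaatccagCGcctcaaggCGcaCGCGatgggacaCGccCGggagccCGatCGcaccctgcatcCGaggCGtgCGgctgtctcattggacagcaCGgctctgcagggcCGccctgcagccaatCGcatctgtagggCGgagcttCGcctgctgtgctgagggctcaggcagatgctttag
Slc24a3, chr2:145167525-145167824, plus strand: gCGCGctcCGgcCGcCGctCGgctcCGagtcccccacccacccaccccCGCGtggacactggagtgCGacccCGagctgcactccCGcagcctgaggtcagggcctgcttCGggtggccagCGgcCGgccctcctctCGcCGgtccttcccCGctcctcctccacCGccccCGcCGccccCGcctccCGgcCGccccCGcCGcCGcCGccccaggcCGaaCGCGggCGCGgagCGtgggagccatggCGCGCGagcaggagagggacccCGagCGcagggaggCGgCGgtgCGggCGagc
The Slc24a3 window was 80.7% G and C with 43 CpG dinucleotides, that of Slc2a6 64.7% with 22 and that of Slc1a4 65% with 21, beside medians of 60.3% and 20 over the windows of all tested genes. The table of windows matched 123 of the 161 Slc genes and 6 of the 8 that passed. Blimp-1 is known to bind sequences with a GAAAG core, so the letters AGNGAAAG and GAAAGT were searched on both strands, which overlap where a T follows the first. Neither was found in the 8 windows of these 6 genes. AGNGAAAG was in 8.28% of the windows of Slc genes, 7.87% of those of all tested genes and 8.64% of all windows. GAAAGT was in 11.2%, 12.5% and 14.3% of them. GAAAG alone was not counted, and it occurs in the windows printed for Slc1a4 and Slc2a6. The search says only that the longer strings are not in the 8 windows, and nothing about the factor.

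Metal carriers held 2 members that rose and 0 that fell among 22 (9.09%, beside 4.13% of all genes). Slc41a3 belongs to a family of magnesium carriers. It was 7.99, 7.49 and 8.33 in Blimp1 +/gfp and 9.66, 9.87 and 9.31 in Blimp1 gfp/gfp. Without overlap, it rose by 1.68 ± 0.26 (SE), 3.20-fold (adjusted p = 0.0181, limma with Benjamini-Hochberg). Slc11a2 encodes DMT1, which brings ferrous iron into the cytosol from the gut or from endosomes. On its brightest probe it was 8.96, 8.42 and 8.74 in Blimp1 +/gfp and 9.57, 9.75 and 9.67 in Blimp1 gfp/gfp, and it rose by 0.96 ± 0.17 (SE; adjusted p = 0.0329, limma with Benjamini-Hochberg). Its 2 other kept probes were higher in Blimp1 gfp/gfp as well, by 1.70 and 1.78. With the mean over its 3 probes Slc11a2 differed by 1.48 (adjusted p = 0.0078, limma with Benjamini-Hochberg).

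The other metal carriers did not pass. The zinc importer Slc39a6 differed by 0.01 ± 0.17 and the zinc exporter Slc30a1, on its brightest probe, by 0.03 ± 0.21. The other kept probe of Slc30a1 differed by 0.45. Of 9 tested Slc39 and 5 tested Slc30 genes, both families of zinc carriers, 0 passed. Slc25a37, the mitochondrial iron carrier mitoferrin, was 8.21, 8.11 and 8.09 against 8.56, 8.20 and 8.52, a difference of 0.29 ± 0.15 (adjusted p = 0.376, limma with Benjamini-Hochberg). Beside Slc11a2, 16 genes of iron, zinc and copper handling were tested and 0 passed in limma. Their unadjusted limma p was under 0.05 for 1 higher and 3 lower genes, where 18.5% of all genes had such a p. The transferrin receptor Tfrc, through which the iron that DMT1 releases from endosomes enters, differed by -0.20 ± 0.32 (adjusted p = 0.812, limma with Benjamini-Hochberg).

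The member that fell was Slc66a2, one of 2 tested PQ-loop transporters, a family whose best known members export amino acids from lysosomes. It was 10.82, 10.83 and 10.37 in Blimp1 +/gfp and 9.31, 8.93 and 9.20 in Blimp1 gfp/gfp. All Blimp1 gfp/gfp values were lower. Slc66a2 fell by 1.53 ± 0.19 (SE) on the log2 scale (adjusted p = 0.0104, limma with Benjamini-Hochberg), and its 3 other probes were not detected on any array. The second gene, Slc66a1, which exports cationic amino acids from lysosomes, was 7.94, 7.70 and 7.69 against 7.13, 7.59 and 7.51 and did not pass (adjusted p = 0.326, limma with Benjamini-Hochberg). A further lysosomal carrier, Slc46a3, which is counted in the vitamin class, was 10.67, 10.27 and 11.15 against 9.48, 9.90 and 9.70. Its difference was -1.0 ± 0.25, also without overlap and short of the threshold (adjusted p = 0.0809, limma with Benjamini-Hochberg). Of the other lysosomal carriers named here, Slc2a6 differed by 2.96 ± 0.27 and Slc17a5 by 0.51 ± 0.23 (adjusted p = 0.00574 and 0.298, limma with Benjamini-Hochberg). Lysosomal carriers were not counted as a class, and these few genes say nothing about them as a group.

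The other 11 of the 16 classes held 0 members past the threshold. The mitochondrial carriers were the largest class, with 30 genes, a median difference of 0.20, and 5 higher and 1 lower genes with an unadjusted p under 0.05 (20.0%, near the 18.5% of all genes). Slc25a17, a carrier of peroxisomes, was 10.01, 9.69 and 9.63 against 10.43, 10.57 and 10.36 (difference 0.68 ± 0.16; adjusted p = 0.0704, limma with Benjamini-Hochberg). Slc25a46, a protein of the outer mitochondrial membrane, was detected by all 3 Blimp1 gfp/gfp arrays and none of the others, at least 1.29-fold higher by the group means (adjusted p = 0.0704, limma with Benjamini-Hochberg). The ADP/ATP carrier Slc25a4 was 7.71, 8.15 and 7.11 against 8.63, 8.72 and 8.73, a difference of 1.04 ± 0.26 (adjusted p = 0.0838, limma with Benjamini-Hochberg). Its relative Slc25a5 lay between 14.18 and 14.38 on all 6 arrays and differed by 0.08 ± 0.13.

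The class of nucleotide sugar carriers and their Slc35 relatives, not all of which are known to carry nucleotide sugars, lay close together in the 2 genotypes. All 18 differed by less than 0.5 in size, from -0.37 ± 0.19 for Slc35d1 to 0.47 ± 0.27 for the UDP-galactose carrier Slc35a2. The median of the class was -0.09, 0 had an unadjusted p under 0.05 (all genes 18.5%), and 1 of 18 did not overlap between genotypes (5.56%, beside 25.8% of all genes).

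Among 9 carriers of vitamins, choline and cofactors, the reduced folate carrier Slc19a1 was 9.17, 9.53 and 8.93 in Blimp1 +/gfp and 10.28, 10.08 and 9.82 in Blimp1 gfp/gfp. The groups did not overlap, and the difference of 0.85 ± 0.21 missed the threshold (adjusted p = 0.0796, limma with Benjamini-Hochberg). The class median was -0.17, where the unadjusted p was under 0.05 for 1 higher and 3 lower genes (44.4% of these 9, beside 18.5% of all genes). Of 3 fatty acid carriers, Slc27a1 differed by 0.68 ± 0.16 and Slc27a3 by -0.50 ± 0.18 (adjusted p = 0.0691 and 0.20, limma with Benjamini-Hochberg). Of 7 carboxylate carriers 0 had an unadjusted p under 0.05, beside 18.5% of all genes. Slc16a3, the lactate exporter MCT4, was detected on 3 arrays and differed by 0.40 ± 0.37, Slc16a13, a less studied relative, by -0.30 ± 0.16, and Slc16a1, the lactate carrier MCT1, was not detected on any array. The chaperones of these lactate carriers, Bsg and Emb, differed by -0.03 ± 0.21 and 0.77 ± 0.19 (adjusted p = 0.972 and 0.0807, limma with Benjamini-Hochberg).

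Smaller classes gave no call either. The nucleoside carriers Slc29a1 and Slc29a4 differed by 0.23 ± 0.19 and -0.54 ± 0.31, and the phosphate carriers Slc20a1 and Slc20a2 by -0.14 ± 0.25 and 0.17 ± 0.19. Slc14a1, a urea carrier, was 9.93, 10.37 and 10.13 against 9.80, 9.44 and 9.90, a difference of -0.43 ± 0.19 (adjusted p = 0.287, limma with Benjamini-Hochberg). The organic anion carrier Slc22a7 differed by -0.57 ± 0.22 and its class mate Slc10a3 by 0.16 ± 0.15. Slc17a5, which exports sialic acid from lysosomes, differed by 0.51 ± 0.23, and Slc17a9, a vesicular nucleotide carrier, by 0.16 ± 0.22. Among the 3 genes that are no carriers, Slc9a3r1 differed by -0.12 ± 0.13 and Slc7a6os by 0.29 ± 0.23. A miss of the threshold does not show that levels were equal: the 95% interval of a member's difference reached a median of 0.48 to either side.

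**Figure D3:**
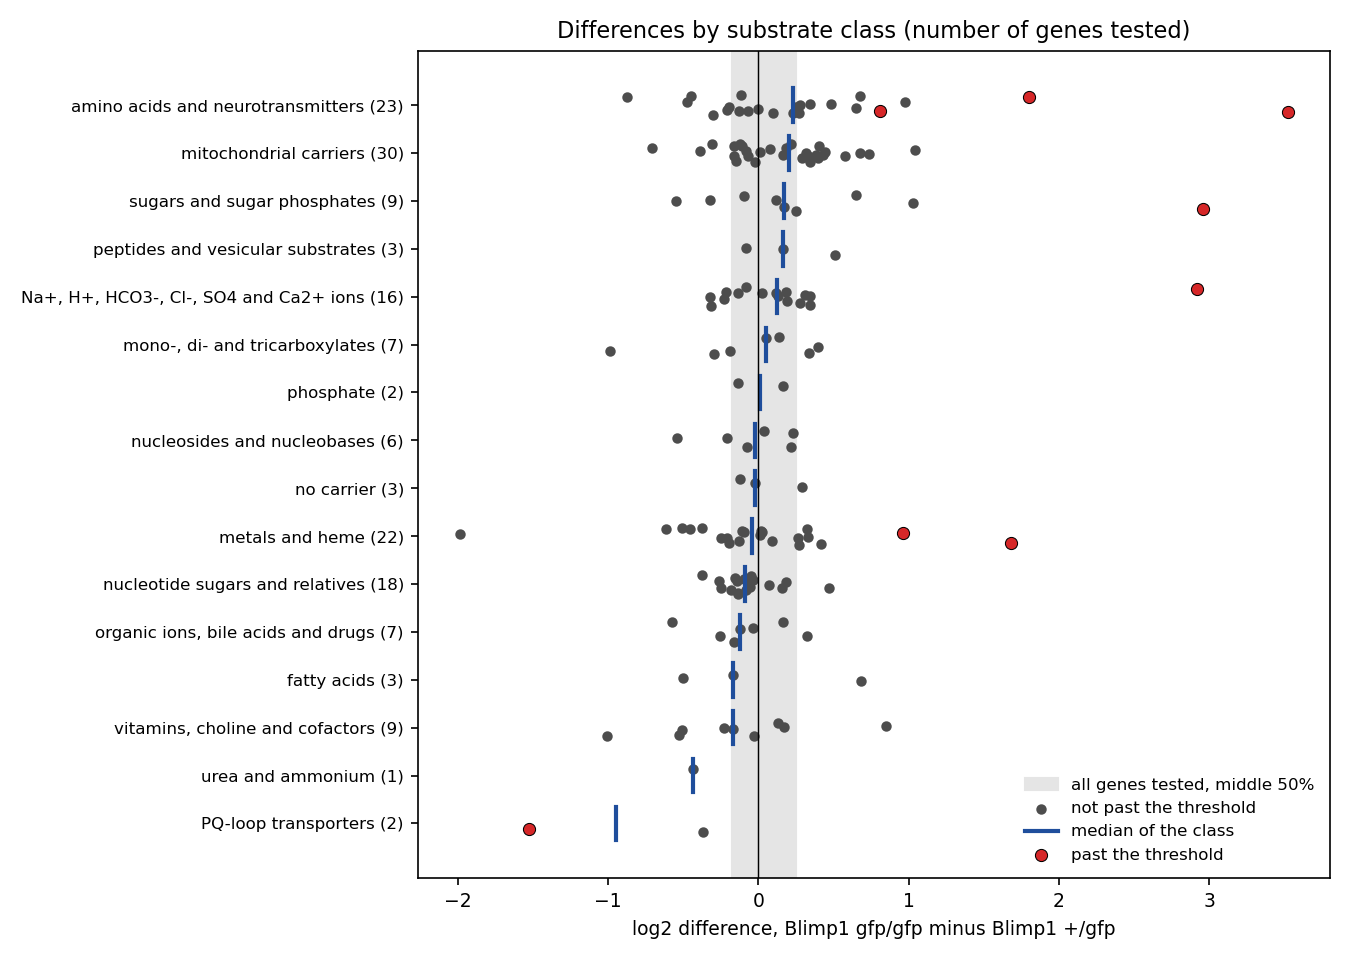
Log2 difference, Blimp1 gfp/gfp minus Blimp1 +/gfp (x), of each of the 161 Slc genes by substrate class (y, number of genes tested in brackets), with the class median as a blue bar and the range between the quartiles of all genes in grey. The class medians lie between -0.17 and 0.23 except for the urea carrier (-0.43) and the 2 PQ-loop transporters (-0.95), and the red points are the 8 genes that passed.

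Some carriers varied more within a genotype than between them. An SD over 1 in either genotype was found for 5 Slc genes (3.11%, all genes 3.11%), and 4 of these were highest in Blimp1 +/gfp replicate 3. Slc40a1 encodes ferroportin, the iron exporter that macrophages, which recycle iron, are known to hold in quantity. It was 6.41, 9.23 and 14.17 in Blimp1 +/gfp and 6.33, 8.77 and 8.76 in Blimp1 gfp/gfp. The difference of the means was -1.99 ± 1.84 (adjusted p = 0.648, limma with Benjamini-Hochberg), and it was 0.13 without that replicate. Slc11a1, a metal carrier of phagocyte vacuoles, was 12.62 in that sample and 10.20 to 10.71 in the other 5, and its difference went from -0.45 to 0.31 without it. Slc16a9, a relative of the monocarboxylate carriers, was 9.22 there and 5.37 to 6.03 elsewhere, with a difference of -0.99 that became 0.19. Slc7a7, a cationic amino acid exchanger, was 7.87 there and 5.44 to 6.25 elsewhere. Beside them, the 10 markers of dendritic cells and antigen presentation had a mean level of 10.67 in that sample and 9.05 to 9.87 in the others, and 6 of the 10 were highest there. Siglech, of the same list, was lowest there (5.75, and 5.95 to 6.35 elsewhere), and Flt3 was not tested and was not detected on any array. Of the 8 tested myeloid and granulocyte markers 4 were highest there. Among them were Fcer1g, an Fc receptor chain of myeloid cells (12.90 there and 7.79 to 9.72 elsewhere), and its signalling relative Tyrobp (9.89 there and 6.13 to 7.32 elsewhere). The lysozyme Lyz2 was 10.93 there, 10.29 and 10.54 in the other Blimp1 +/gfp samples, and 10.27, 7.34 and 7.16 in Blimp1 gfp/gfp. Camp, Ltf and Mpo had their lowest Blimp1 +/gfp value there (5.84, 5.73 and 4.97). Cebpa was 9.60 there and 11.25 to 11.45 in Blimp1 gfp/gfp. Elane and Itgam of that list were not tested and were not detected on any array. Hmox1, the heme oxygenase that frees iron from heme, was 12.89 there and 8.30 to 9.29 elsewhere. The part of such cells in these values was not tested.

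Slc4a1, the anion exchanger band 3 of red cells, was 5.46, 5.56 and 7.22 in Blimp1 +/gfp and 5.29, 7.06 and 6.72 in Blimp1 gfp/gfp. Hba-a1, a hemoglobin chain, was 5.78, 8.18 and 13.40 against 9.82, 12.89 and 11.30. Of 4 erythroid and megakaryocyte markers tested 0 passed in limma, where 1 higher gene had an unadjusted p under 0.05, and Itga2b, Pf4 and Hbb-b2 were not detected on any array. Their mean level ran from 5.42 to 8.26 in Blimp1 +/gfp and from 6.82 to 8.32 in Blimp1 gfp/gfp, and their part in Slc4a1 was not tested. CD8 T cell and NK cell markers gave 0 of 7 in limma, where the unadjusted p was under 0.05 for 0 higher and 2 lower genes, beside 18.5% of all genes. The NK cell receptor Ncr1 was not detected on any array.

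**Figure D4:**
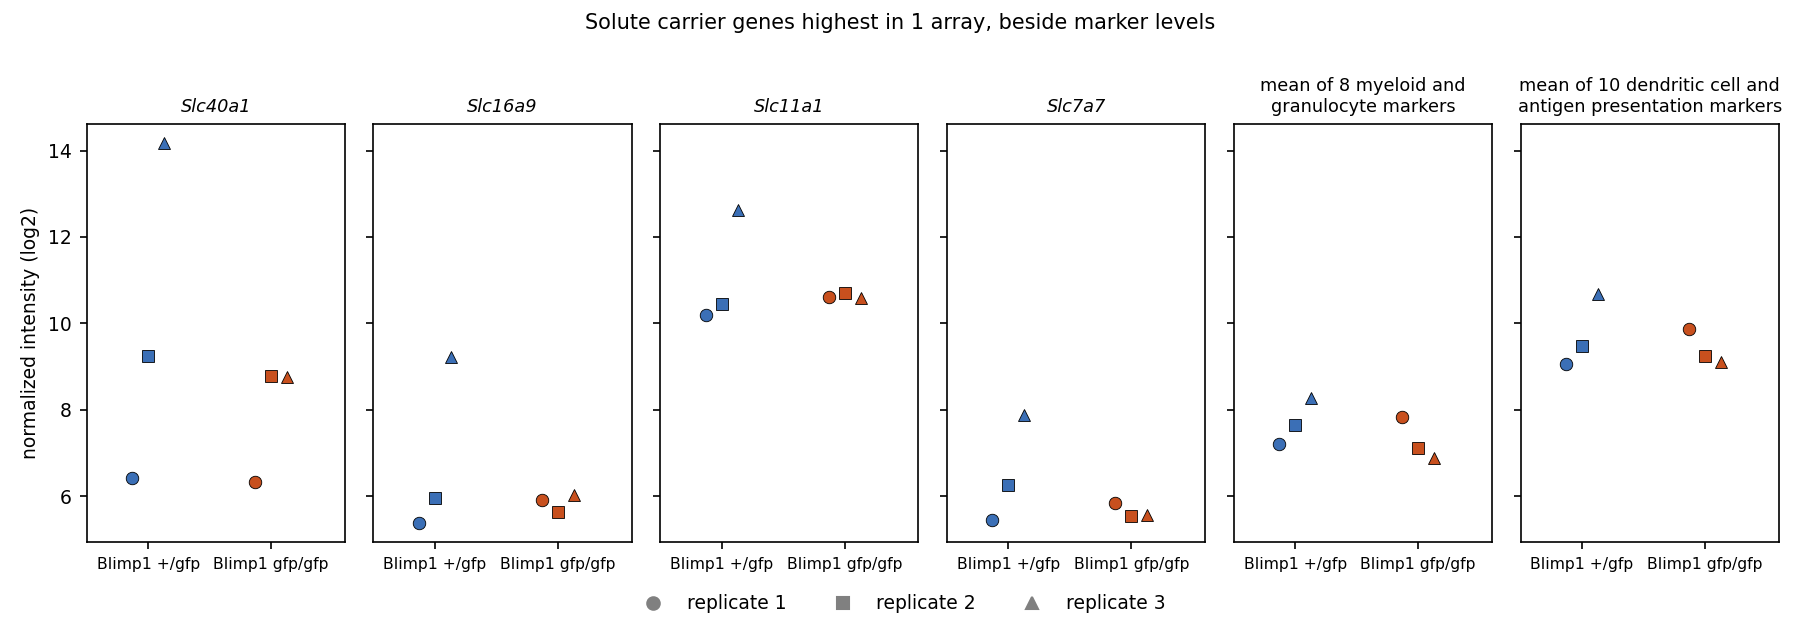
Normalized log2 intensity on each array (y) of 4 Slc genes and the mean level of 2 marker lists, for Blimp1 +/gfp (blue) and Blimp1 gfp/gfp (orange), with a symbol per replicate. Blimp1 +/gfp replicate 3 (blue triangle) is the highest point in every panel, reaching 14.17 for Slc40a1.

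The 8 calls were not equally stable when single arrays were left out. Slc2a6 and Slc1a4 passed in 6 of 6 omissions (limma, Benjamini-Hochberg adjusted p 0.00802 to 0.036 and 0.00641 to 0.0494). Slc24a3 and Slc66a2 passed in 5 of 6, with a highest adjusted p of 0.0566 without Blimp1 +/gfp replicate 1 (limma, Benjamini-Hochberg). Slc41a3 passed in 2 of 6, Slc7a10 and Slc43a2 in 1 of 6 each, that without Blimp1 +/gfp replicate 3, and Slc11a2 in 0 of 6 on its brightest probe (limma, Benjamini-Hochberg adjusted p up to 0.0768, 0.116, 0.133 and 0.116). No difference of the 8 changed sign, and the number of Slc genes past the threshold fell to 2 without replicate 1 of Blimp1 +/gfp, to 4 without replicate 2 and to 7 without replicate 3, and to 4, 4 and 5 when replicates 1, 2 and 3 of Blimp1 gfp/gfp were omitted in turn. Beside the genes that rose, the B cell markers Blk and Pou2af1 rose too (log2 differences 3.78 ± 0.35 and 2.46 ± 0.28), and their part in these values was not tested.

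**Figure D5:**
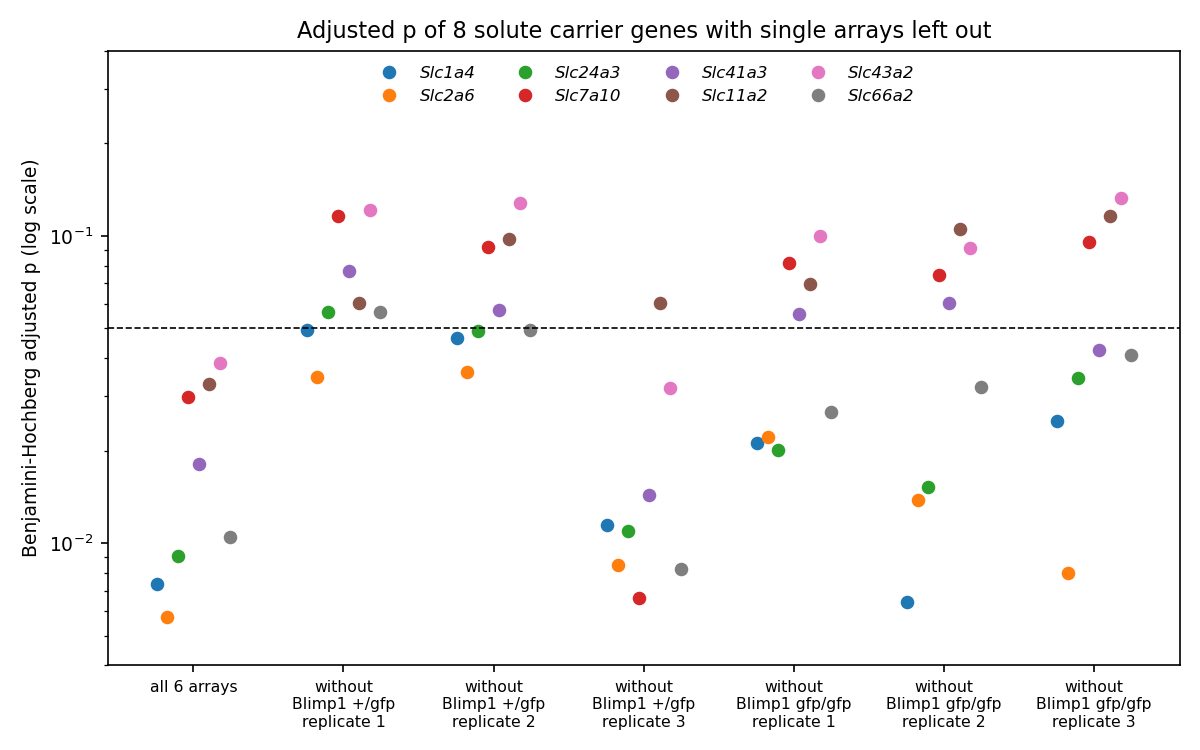
Benjamini-Hochberg adjusted p in limma (y, log scale) of the 8 Slc genes with all 6 arrays and with each array left out (x), with the threshold of 0.05 dashed. Slc2a6 and Slc1a4 stay below the line in every column, and Slc11a2 is above it in each of the 6 omissions.

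Membrane transport genes outside the Slc symbols were read beside the members. Of 15 ABC transporters tested 1 rose and 1 fell (13.3%, beside 4.13% of all genes). Abca3, a lipid carrier, rose by 0.86 ± 0.17 and Abcb9, a lysosomal peptide carrier, fell by 0.86 ± 0.17 (adjusted p = 0.0431 and 0.0419, limma with Benjamini-Hochberg). Of 19 solute carriers under other symbols 0 passed in limma, where the unadjusted p was under 0.05 for 1 higher and 0 lower genes, beside 18.5% of all genes. Of 15 transporter partners and ion transport regulators 1 rose (6.67%, beside 4.13% of all genes). This was Stom, which encodes the membrane protein stomatin, known from human red cells as a partner of a glucose carrier. Stom was 7.74, 7.43 and 8.67 against 11.46, 11.80 and 11.44, a rise of 3.62 ± 0.32 (SE; adjusted p = 0.00574, limma with Benjamini-Hochberg).

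The detection rule bears on the dimmest members. Of the 161, 4 were detected on every array of one genotype and on none of the other, and such a gene had to differ to be kept in that way: Slc1a4, Slc6a9 and Slc25a46 were detected in Blimp1 gfp/gfp alone and Slc36a3 in Blimp1 +/gfp alone. Slc6a9, a glycine carrier, was 5.48, 5.04 and 5.37 against 6.22, 6.87 and 5.74, at least 1.42-fold higher by the group means, and Slc36a3 was 5.96, 5.81 and 5.97 against 5.47, 5.30 and 5.56, at least 1.16-fold lower in Blimp1 gfp/gfp (adjusted p = 0.132 and 0.126, limma with Benjamini-Hochberg). In 16 genes the best probe was detected on 3 arrays, just inside the rule, and in 15 on 2 arrays, just outside it. Examples are Slc19a3, a thiamine carrier, just inside (5.64, 5.90 and 5.82 against 5.53, 5.93 and 5.40), and Slc7a11, the cystine carrier, just outside (6.29, 5.87 and 5.42 against 5.33, 5.40 and 5.45). Of 31 Slc genes with more than 1 kept probe, the differences of all probes had the same sign in 19.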

How the data were processed

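Total RNA of 6 samples was labelled and hybridised to Illumina mouse BeadChips, 1 colour per array. The deposited table holds a probe intensity, not log-transformed and not normalized, and a detection p-value per probe and array; the second deposited table holds log2 values. The submitters' processing notes name BeadStudio and limma, with versions and settings not given in the sources used here.

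Intensities were background-corrected with normexp from the detection p-values (offset 16), quantile-normalized and taken to log2, with limma 3.58.1 in R 4.3.3. The results differed from the deposited log2 values by a median of 0.00264. A probe was kept where 3 or more arrays gave it a detection p under 0.05 (15800 of 46632). Of all probes 29976 had 1 gene symbol in the platform annotation, 10 had several and 16646 none, and probes without exactly 1 symbol were left out. Each gene kept the probe with the highest mean of deposited log2 values. Group means were compared with lmFit and eBayes over 8743 genes, with Benjamini-Hochberg adjustment and a threshold of 0.05. The procedure was tested on simulated data.

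The members, substrate classes and gene lists were chosen with earlier results of these data known, and some Slc families were put into a class after the files had been read. The genes named were every Slc gene past the threshold, in a class with none the 2 with the smallest p, the 5 largest differences each way, a set of well-known carriers, and up to 4 genes past the threshold per list. Other genes named, such as Slc37a2, Slc25a4, Slc25a5, Slc66a1, Slc2a8, Slc2a9, Slc24a4, Slc8b1, Slc6a9, Slc36a3, Slc19a3, Slc7a11, Asns, Atf4, Tfrc, Cd79a, Cd79b, Tyrobp, Lyz2 and Hmox1, were chosen after their values were seen. Same-numbered samples of the 2 genotypes did not deviate together (correlations 0.19, -0.08 and 0.00), so the numbers were not taken as pairs.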

Additional observations from a re-analysis of the deposited data

How the results depend on the processing

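Counts of genes past the threshold were recomputed under 20 settings, changing 1 choice at a time. Of these, 2 are other thresholds, which leave differences and medians as they are, so medians and single genes have at most 18, and fewer where a stricter filter drops the gene. The count of Slc genes past the threshold in limma was 8 and lay between 7 and 10 with another background offset, the deposited log2 values, cyclic loess, median scaling, other detection filters, the mean over probes, a mean-variance trend and robust eBayes. It was 18 with array weights (13 higher, 5 lower), 15 at an adjusted p under 0.1, 3 at an adjusted p under 0.01, and 2 to 7 without single replicates. The count for all genes past the threshold was 361, 826 with array weights, 668 and 71 at these adjusted p, and 87 to 367 without single replicates. With the replicate number as a block, 4 Slc genes and 171 genes in all passed; the numbers do not pair the samples, and not every sample correlated best with its own number. Median scaling moved the median over the Slc genes from 0.00 to 0.13 and that over all genes from 0.03 to 0.16, and the split of all genes from 212 higher and 149 lower to 294 and 120; the Slc split stayed at 7 and 1. The other settings gave Slc medians of -0.04 to 0.06. The cause of these shifts was not tested. Array number and signal near background limit the precision for the dimmest genes.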
